A study of Homo sapiens with 2 samples.

Results

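The proteasome genes described here are the 3 catalytic subunits of the constitutive 20S core (PSMB5, PSMB6 and PSMB7), the 3 inducible subunits that take their places in the immunoproteasome (PSMB8, PSMB9 and PSMB10) and the 2 subunits of the PA28 activator (PSME1 and PSME2). They were picked by gene symbol, by a rule that uses no measured value, though the set was chosen with earlier results of these data known. All 8 were found among the 36601 genes of the count matrix. The measurements came from tumours of OVCAR5, an established human ovarian carcinoma line carrying a reporter that senses interferon gamma, grown in NSG-B2m-/- mice, which lack a functional adaptive immune system and mouse beta-2 microglobulin. CFP-positive tumour cells, called bystander cells in the labels, were sorted from 13 pooled tumours and sequenced as 1 droplet library of 3' ends with a library of hashtags, antibody-bound barcodes that mark the tumour of origin. Per the pool's description, TNFa (tumour necrosis factor) at 10 ng/ml was injected into 3 tumours, taken after 6 h, and TNFa together with IFNg (interferon gamma, written IFNy in the labels) at 100 ng/ml into 2 tumours, also taken after 6 h. IFNg alone at 100 ng/ml was given to 2 tumours taken after 24 h and to 1 taken after 48 h. Unexposed tumours numbered 2 at 6 h, 2 at 24 h and 1 at 48 h. The treatment field of the gene library names an unstimulated culture and that of the hashtag library names TNFa, which differs from the description of the pool.

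A cell carried a pair of hashtags, and 13 pairs were found. Each pair is called a population here, for example HTO2+HTO5. The sources used here do not say which pair marked which tumour. No exposed population could therefore be set against an unexposed one, and with 1 library there is no replicate and no test between conditions. Every interval below is a 95% counting interval and covers counting error only. Differences between populations could come from treatment, from time, or from differences between tumours and animals, which cannot be told apart. The 13 populations held 2994 cells, 110 to 507 each, with medians of 6434.5 to 9450.0 UMIs (counted molecules) per cell. Median mitochondrial shares lay between 14.3% and 15.6%. The share of a population's barcodes past the cell filter was lowest in HTO3+HTO6 (24.3%) and highest in HTO4+HTO7 (58.2%). At least 3 of 10 epithelial carcinoma markers were found in 2874 cells (96.0%), while lymphocyte, endothelial and erythroid lists reached 3 markers in 0 cells, the fibroblast list in 2 and the macrophage list in 19. The markers are human genes and the host was a mouse, so these counts cannot show whether host cells were present. The 8 genes together had 112119 UMIs, 0.386% of the UMIs of these cells.

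The proteasome is the protease that degrades most ubiquitin-tagged protein and makes most of the peptides that class I major histocompatibility molecules present. Its barrel-shaped 20S core has catalytic sites in only 3 of its beta subunits: PSMB5 gives the chymotrypsin-like, PSMB6 the caspase-like and PSMB7 the trypsin-like activity. Interferon gamma induces the genes of PSMB8 (also called LMP7), PSMB9 (LMP2) and PSMB10 (MECL-1), which are built into new cores in place of PSMB5, PSMB6 and PSMB7 respectively. PSME1 and PSME2 encode the alpha and beta chains of PA28, an interferon-inducible ring that caps the core. Interferon-regulated genes often carry an interferon-stimulated response element (ISRE), read by interferon regulatory factors, near their start.

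The genes lie at 6 places, in GRCh38 coordinates from GENCODE 29. PSMB8 (ENSG00000204264, chr6:32840717-32844703, minus strand) and PSMB9 (ENSG00000240065, chr6:32844136-32859585, plus strand) lie in the class II region with the peptide transporter gene TAP1 (chr6:32845209-32853978, minus strand), whose span falls within that of PSMB9 without overlap of exons. PSMB10 (ENSG00000205220) is at chr16:67934502-67937087 on the minus strand. PSME1 (ENSG00000092010, chr14:24136158-24138967, plus strand) and PSME2 (ENSG00000100911, chr14:24143362-24147570, minus strand) are 4394 bases apart. PSMB5 (ENSG00000100804, chr14:23016543-23035230, minus strand) is on the same chromosome, PSMB6 (ENSG00000142507) is at chr17:4796144-4798503 on the plus strand and PSMB7 (ENSG00000136930) is at chr9:124353466-124415444 on the minus strand. Exons of PSMB8 overlap those of PSMB9 and of the antisense gene PSMB8-AS1, exons of PSME1 overlap EMC9, and exons of PSME2 overlap RNF31, all on opposite strands. PSMB9 and PSMB8-AS1 overlap in exons on the same strand, which strand cannot resolve. The sources used here do not say how the counting used strand, so reads from such overlaps are uncertain. PSMB8-AS1 had 375 UMIs over the populations against 12365 for PSMB8. PSME2 has processed pseudogenes in the genome, and reads that match more than 1 copy are a further uncertainty for its level.

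Promoter windows from 250 bases before to 50 bases after a start were taken from RefSeq (GRCh38.p14), which matched 6 of the 8 genes (PSMB5, PSMB8, PSMB9, PSMB10, PSME1 and PSME2) and TAP1. They are shown because 4 of the 5 inducible genes held a match to an interferon element in them, PSMB9 held none but faces the window of TAP1, which did, and PSMB5 serves as a constitutive gene for comparison; the capitals mark matches to the ISRE letters, GAAA and GAAA with any 2 bases (NN) between them, on either strand. The windows are, in order, PSMB8 window 2 (chr6:32843998-32844297, minus strand), PSMB10 (chr16:67936801-67937100, minus), PSME1 (chr14:24135944-24136243, plus), PSME2 (chr14:24146561-24146860, minus), TAP1 window 1 (chr6:32853655-32853954, minus), PSMB9 (chr6:32853942-32854241, plus) and PSMB5 window 1 (chr14:23035171-23035470, minus), each printed 5′ to 3′ on the strand of its gene.
PSMB8: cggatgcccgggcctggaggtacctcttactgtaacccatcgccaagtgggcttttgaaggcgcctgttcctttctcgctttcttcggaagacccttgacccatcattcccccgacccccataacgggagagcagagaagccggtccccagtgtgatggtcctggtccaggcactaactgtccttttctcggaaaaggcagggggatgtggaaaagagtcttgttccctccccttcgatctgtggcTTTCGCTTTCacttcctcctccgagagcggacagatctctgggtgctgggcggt
PSMB10: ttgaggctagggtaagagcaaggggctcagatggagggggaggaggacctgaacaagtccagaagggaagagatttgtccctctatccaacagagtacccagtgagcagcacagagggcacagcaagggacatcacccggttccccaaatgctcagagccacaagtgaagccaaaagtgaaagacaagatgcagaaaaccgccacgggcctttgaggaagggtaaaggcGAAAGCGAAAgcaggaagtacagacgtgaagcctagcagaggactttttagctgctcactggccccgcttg
PSME1: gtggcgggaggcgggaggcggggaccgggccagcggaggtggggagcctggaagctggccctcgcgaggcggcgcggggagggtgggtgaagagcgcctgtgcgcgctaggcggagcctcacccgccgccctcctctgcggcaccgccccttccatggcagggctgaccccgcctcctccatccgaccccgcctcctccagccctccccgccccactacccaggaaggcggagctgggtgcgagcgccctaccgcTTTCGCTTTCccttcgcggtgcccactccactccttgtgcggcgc
PSME2: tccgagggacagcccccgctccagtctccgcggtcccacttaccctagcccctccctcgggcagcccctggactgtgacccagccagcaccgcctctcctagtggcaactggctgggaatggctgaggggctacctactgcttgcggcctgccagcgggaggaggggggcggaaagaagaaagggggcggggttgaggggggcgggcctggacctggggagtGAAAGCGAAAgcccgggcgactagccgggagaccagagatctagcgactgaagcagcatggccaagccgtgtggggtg
TAP1: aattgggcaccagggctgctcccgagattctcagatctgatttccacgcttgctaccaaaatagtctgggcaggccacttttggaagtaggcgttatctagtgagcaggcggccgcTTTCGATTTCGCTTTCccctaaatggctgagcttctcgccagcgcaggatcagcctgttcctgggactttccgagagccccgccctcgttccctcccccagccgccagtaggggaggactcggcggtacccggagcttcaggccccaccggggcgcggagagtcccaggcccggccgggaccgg
PSMB9: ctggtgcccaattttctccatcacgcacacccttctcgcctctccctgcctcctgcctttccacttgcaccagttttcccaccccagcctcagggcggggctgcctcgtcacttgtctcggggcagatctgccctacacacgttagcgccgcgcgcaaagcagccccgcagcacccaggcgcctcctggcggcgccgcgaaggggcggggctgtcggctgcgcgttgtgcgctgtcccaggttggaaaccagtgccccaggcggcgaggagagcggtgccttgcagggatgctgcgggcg
PSMB5: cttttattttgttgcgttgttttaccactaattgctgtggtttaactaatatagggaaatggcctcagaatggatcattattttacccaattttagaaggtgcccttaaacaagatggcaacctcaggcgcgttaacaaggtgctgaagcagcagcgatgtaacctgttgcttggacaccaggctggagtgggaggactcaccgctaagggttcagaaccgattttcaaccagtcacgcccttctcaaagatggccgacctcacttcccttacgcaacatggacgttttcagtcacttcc

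The 4 windows of PSMB8, PSMB10, PSME1 and PSME2 shown above each held 1 ISRE match, and in all of them the match read GAAAGCGAAA on one strand. These 10 letters occurred in 35 of 35116 RefSeq promoter windows (0.0997%), and the ISRE letters with any 2 bases between in 3.57%. The share for the exact letters was looked up after the matches were seen. The match began 28 bases before the start in PSME2, 21 before in PSMB10 and 4 before in PSMB8, and 6 after the start in PSME1. The PSMB9 window held no match. The TAP1 window, which faces it on the opposite strand, held 2 overlapping matches, GAAATCGAAA and GAAAGCGAAA, that begin 363 and 369 bases from the PSMB9 start (chr6:32854192). Neither PSMB5 window nor the other PSMB8 window held one. The NF-kB letters, GGG and CC with any 5 bases between them, occurred in 58.7% of all windows and the antioxidant response letters TGACNNNGC in 13.3%, so a match to either says little about a single gene. A match is a description of letters and not a measured binding site.

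The constitutive catalytic subunits had the smallest ranges of the 8 genes across the populations. Levels are given as UMIs per 1000000 (CPM), summed over the cells of a population. PSMB5 ran from 319 CPM (HTO4+HTO9) over a median of 349 to 462 (HTO3+HTO7), a 1.45-fold range (1.25 to 1.69). PSMB6 ran from 309 (HTO2+HTO6) over 376 to 459.5 (HTO3+HTO7), or 1.48-fold (1.34 to 1.64). PSMB7 ran from 141 (HTO4+HTO8) over 159 to 173 (HTO3+HTO7), or 1.23-fold (1.02 to 1.49). HTO3+HTO7 was the highest population for all 3. When populations were ordered by level, none of the 12 steps between neighbours exceeded counting error for PSMB5 or PSMB7, and 1 did for PSMB6, that below HTO3+HTO7. Because the ends of each range were picked as the highest and the lowest of 13, these folds are somewhat above those of a pair fixed beforehand. With the stricter cell filter (1000 genes, at most 10% mitochondrial UMIs), which left 12 to 69 cells per population, the range was 2.27-fold for PSMB5 and 1.92-fold for PSMB7.

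The inducible subunits varied far more, and the same 4 populations led for each: HTO4+HTO9, HTO4+HTO8, HTO2+HTO8 and HTO2+HTO9, in that order. PSMB9 stood at 1658 CPM in HTO4+HTO9, 1549 in HTO4+HTO8, 1358 in HTO2+HTO8 and 869 in HTO2+HTO9. A middle group followed, with 473 in HTO2+HTO7, 455 in HTO2+HTO6, 449 in HTO3+HTO6 and 385 in HTO2+HTO5. The lowest values were 261 in HTO4+HTO7, 249 in HTO4+HTO6, 206 in HTO3+HTO9, 186 in HTO3+HTO7 and 162 in HTO3+HTO5. The range was 10.2-fold (8.83 to 11.9), and the step from the fourth to the fifth population was 1.84-fold (1.72 to 1.96). Steps within counting error joined HTO4+HTO9 to HTO4+HTO8, the 3 populations from HTO2+HTO7 to HTO3+HTO6, HTO4+HTO7 to HTO4+HTO6, and the 3 lowest populations.

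PSMB8 had the smallest range of the 3, 5.23-fold (4.52 to 6.06). It stood at 981 CPM in HTO4+HTO9, 909 in HTO4+HTO8, 909 in HTO2+HTO8 and 630.5 in HTO2+HTO9, and between 188 and 397 in the other 9 populations, with a median over all 13 of 368. The steps among the 3 highest populations did not exceed counting error. PSMB10 ran from 136 CPM (HTO3+HTO5) over a median of 212 to 917 (HTO4+HTO9), a 6.72-fold range (5.70 to 7.97), and 11.4-fold with the stricter filter. Its values in the 4 leading populations were 917, 809.6, 479 and 396, and in the other 9 they lay between 136 and 250.5. For PSMB10 the 2 populations with HTO4 thus stood well apart from the 2 with HTO2, with 1.69-fold (1.55 to 1.85) between HTO4+HTO8 and HTO2+HTO8, where PSMB8 showed 1.00-fold (0.930 to 1.08).

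PSME1 and PSME2 followed the inducible subunits over a smaller range and from a higher base. PSME2 ran from 653 CPM (HTO3+HTO5) over a median of 990.2 to 2508 (HTO4+HTO8), a 3.84-fold range (3.56 to 4.14). PSME1 ran from 404 (HTO3+HTO9) over 507 to 1158 (HTO4+HTO8), or 2.86-fold (2.60 to 3.16). The 4 leading populations were again HTO4+HTO8 and HTO4+HTO9, then HTO2+HTO8 and HTO2+HTO9. PSME1 in the last of these, at 595, did not stand beyond counting error from HTO3+HTO6 at 562. The ratio of PSME2 to PSME1 UMIs lay between 1.58 and 2.41, highest in HTO2+HTO8.

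**Figure D1:**
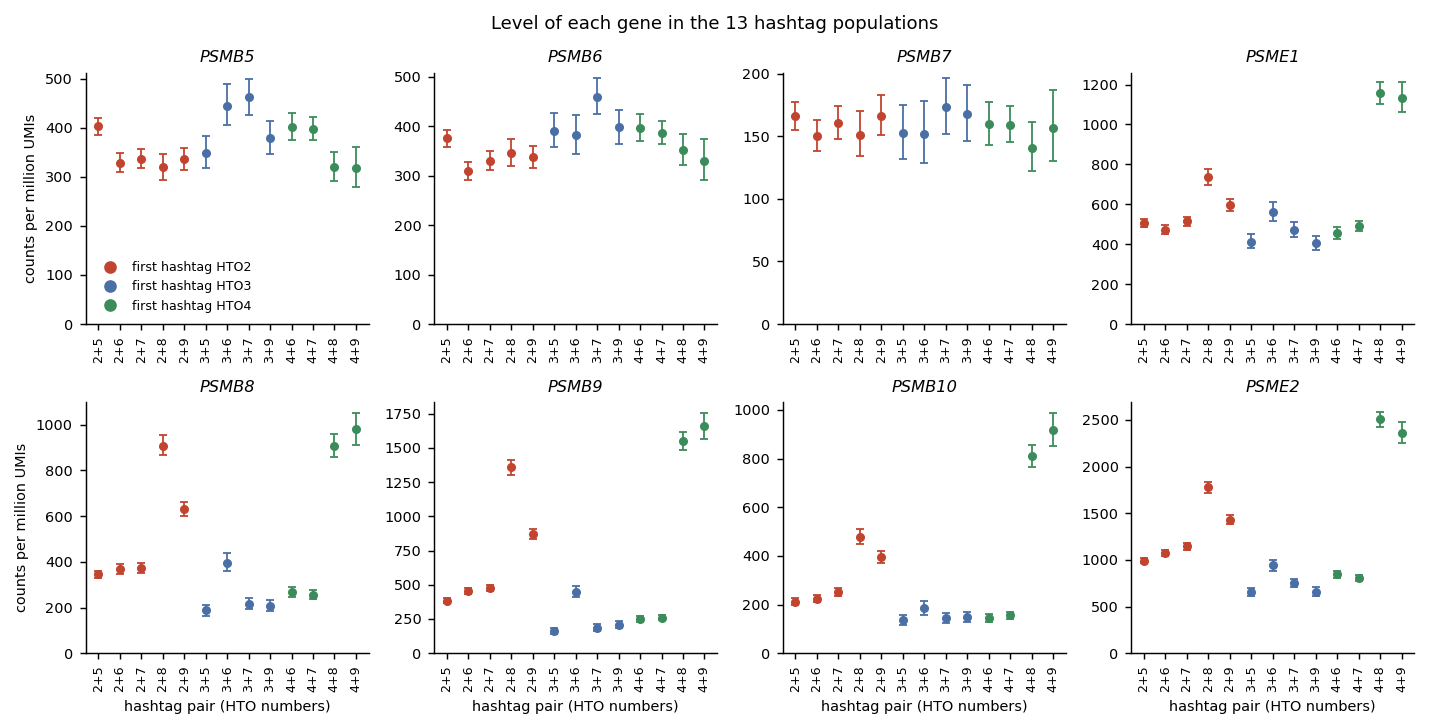
Level of the 8 genes (CPM, vertical axis from 0) in the 13 hashtag populations (horizontal axis), with 95% Poisson counting intervals and colours for the first hashtag of the pair. PSMB5, PSMB6 and PSMB7 stayed within a 1.48-fold range, while PSMB8, PSMB9, PSMB10, PSME1 and PSME2 were highest in the pairs that joined HTO2 or HTO4 to HTO8 or HTO9.

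Against all genes, 5 of the 8 members had a highest population at 2-fold or more over the lowest, where 39.8% of the 6264 genes with 500 UMIs or more did. At 4-fold, 3 of the 8 did (PSMB8, PSMB9 and PSMB10), against 6.85% of genes. The median fold was 3.35 for the members and 1.84 for all genes tested. The members had 4618 UMIs (PSMB7) or more, and the genes tested were not matched to them in UMIs.

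The ratio of each inducible subunit to the one it replaces shows how the mRNA make-up of the catalytic sites differed. These are ratios of UMI counts between genes from 3' ends, which count 1 tag per molecule and need no division by length, but capture may differ between genes. They are therefore compared between populations, and a ratio of 1 does not mean equal numbers of molecules. PSMB8 over PSMB5 was 0.470 (0.408 to 0.540) in HTO3+HTO7 and 3.08 (2.66 to 3.57) in HTO4+HTO9, a 6.55-fold spread (5.36 to 8.00). PSMB9 over PSMB6 went from 0.405 (0.349 to 0.470) to 5.02 (4.38 to 5.77) in the same 2 populations, a 12.4-fold spread (10.1 to 15.1). PSMB10 over PSMB7 went from 0.838 (0.690 to 1.02) to 5.85 (4.81 to 7.16), or 6.98-fold (5.32 to 9.15). With the stricter filter this last spread was 18.2-fold. All 3 ratios had the same lowest and the same highest population, but the next populations could lie within counting error. PSMB9 over PSMB6 was 0.416 (0.352 to 0.489) in HTO3+HTO5, and PSMB10 over PSMB7 was 5.75 (4.96 to 6.69) in HTO4+HTO8. HTO3+HTO7 also had the highest level of all 3 constitutive subunits.

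The middle group was not spaced alike for the 3 sites. In HTO2+HTO6 and HTO2+HTO7, PSMB8 over PSMB5 was 1.12 and 1.11, PSMB9 over PSMB6 was 1.47 and 1.44, and PSMB10 over PSMB7 was 1.49 and 1.56. HTO3+HTO6 had ratios of 0.891, 1.18 and 1.21. In HTO2+HTO8 the 3 ratios were 2.84, 3.93 and 3.16, and in HTO4+HTO8 they were 2.84, 4.40 and 5.75. These last 2 populations thus had the same ratio at the PSMB5 site and ratios 3.16 (2.76 to 3.63) and 5.75 (4.96 to 6.69) at the PSMB7 site.

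**Figure D2:**
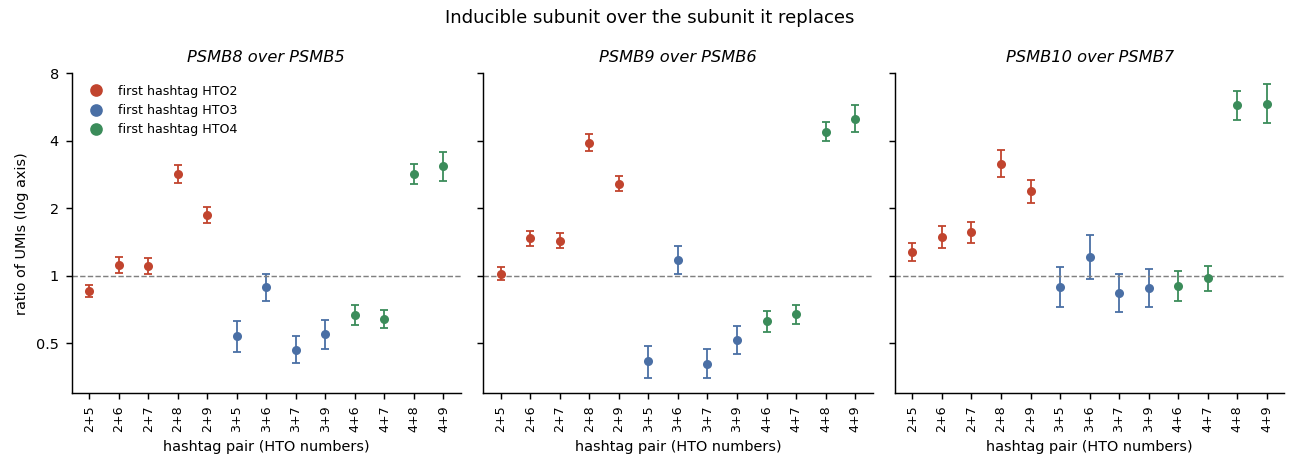
UMIs of each inducible subunit over those of the subunit it replaces (vertical axis, log scale) in the 13 populations (horizontal axis), with 95% counting intervals; the dashed line is a ratio of 1. The 4 pairs that join HTO2 or HTO4 to HTO8 or HTO9 lie between 1.87 and 5.85, above every other pair.

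Summed over the 6 catalytic genes, the inducible subunits made up 81.5% of UMIs in HTO4+HTO9, 80.1% in HTO4+HTO8, 77.1% in HTO2+HTO8 and 69.3% in HTO2+HTO9. They made up 57.0% in both HTO2+HTO6 and HTO2+HTO7, 51.3% in HTO3+HTO6 and 49.9% in HTO2+HTO5. The other 5 populations were at 41.6% (HTO4+HTO7), 40.9% (HTO4+HTO6), 37.3% (HTO3+HTO9), 35.3% (HTO3+HTO5) and 33.4% (HTO3+HTO7). The larger share went with a larger sum and not with a matching loss of the constitutive genes. The summed level of all 6 genes was 1378 CPM in HTO3+HTO5 and 4361 in HTO4+HTO9, while that of the 3 constitutive genes stayed between 789 and 1095 in all 13 populations. Within that range the constitutive sum was 806, 813, 817 and 840 CPM in the 4 leading populations. In the 5 populations with the lowest shares it was 892 to 1095. A low sum was not particular to the leading populations. In the middle group it was 789 in HTO2+HTO6, the lowest of all 13, 827 in HTO2+HTO7, 944 in HTO2+HTO5 and 979 in HTO3+HTO6.

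The make-up of the inducible set itself also differed. PSMB9 over PSMB10 ran from 1.19 (0.971 to 1.46) in HTO3+HTO5 to 2.84 (2.63 to 3.07) in HTO2+HTO8, with 1.91 (1.78 to 2.05) in HTO4+HTO8. PSMB10 gave 17.4% (16.4 to 18.5) of the inducible UMIs in HTO2+HTO8 and 24.8% (23.6 to 26.0) in HTO4+HTO8. TAP1, whose RefSeq promoter window faces that of PSMB9, did not keep a fixed ratio to it. TAP1 over PSMB9 was 0.559 (0.521 to 0.599) in HTO2+HTO9 and 0.396 (0.368 to 0.427) in HTO2+HTO8, and between 0.130 and 0.221 in the other 11 populations.

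Most other genes of the proteasome varied little, the alpha subunits of the core more than the rest. Of 30 other 20S and 19S subunit genes tested, 3 reached 2-fold and 0 reached 4-fold. The median of the 30 was 1.43, against 1.84 for all genes tested, which were not matched to them in UMIs. The 3 were among the 7 alpha subunits, whose median was 1.96: PSMA4 at 2.35-fold, PSMA6 at 2.31-fold and PSMA3 at 2.19-fold. PSMA7, another alpha subunit, had the smallest fold of its list at 1.29. None of the 4 other beta subunits (median 1.34; PSMB4 highest at 1.72, PSMB1 lowest at 1.20), of the 6 ATPases of the 19S cap (median 1.42; PSMC5 1.58, PSMC1 1.28) or of the 13 further 19S subunits (median 1.37; PSMD6 1.84, PSMD7 1.19) reached 2-fold. Summed over the 30 genes, the level ran from 7430.0 CPM (HTO3+HTO5) to 9082 (HTO2+HTO8), a 1.22-fold range. The other activators and the inhibitor stayed under 2-fold, from PSMF1 at 1.31 to PSME4, which encodes PA200, at 1.80. PSMB11 and PSMA8, known from thymus and testis, were listed with 0 UMIs. NFE2L1 and NFE2L2, transcription factors of proteasome genes, had folds of 1.52 each.

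POMP, the maturation protein that helps assemble the core and its inducible form, was the only 1 of 7 assembly genes tested to reach 2-fold, at 2.26 (2.06 to 2.48); PSMG4 was lowest at 1.36, and PSMD5 was under the UMI minimum. Its order was not that of the inducible subunits. POMP stood at 1021 CPM in HTO2+HTO8 and 867 in HTO2+HTO9, then at 657 in HTO4+HTO8 and 636 in HTO4+HTO9, and between 452 and 556 in the other 9. PSMA4 had 722, 577, 699.8 and 693 CPM in those 4 populations and 308 to 406 in the others. PSMA6 was instead highest in HTO2+HTO6, at 873, with 853 in HTO2+HTO8, 814 in HTO2+HTO9, 792 in HTO2+HTO7 and 602 in HTO2+HTO5. PSMA6 was at 627 in HTO4+HTO9 and 616 in HTO4+HTO8, and between 378 and 425 in the remaining 6 populations. PSMA3 had its highest level in HTO2+HTO9, at 477, and its lowest in HTO3+HTO5, at 217.

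**Figure D3:**
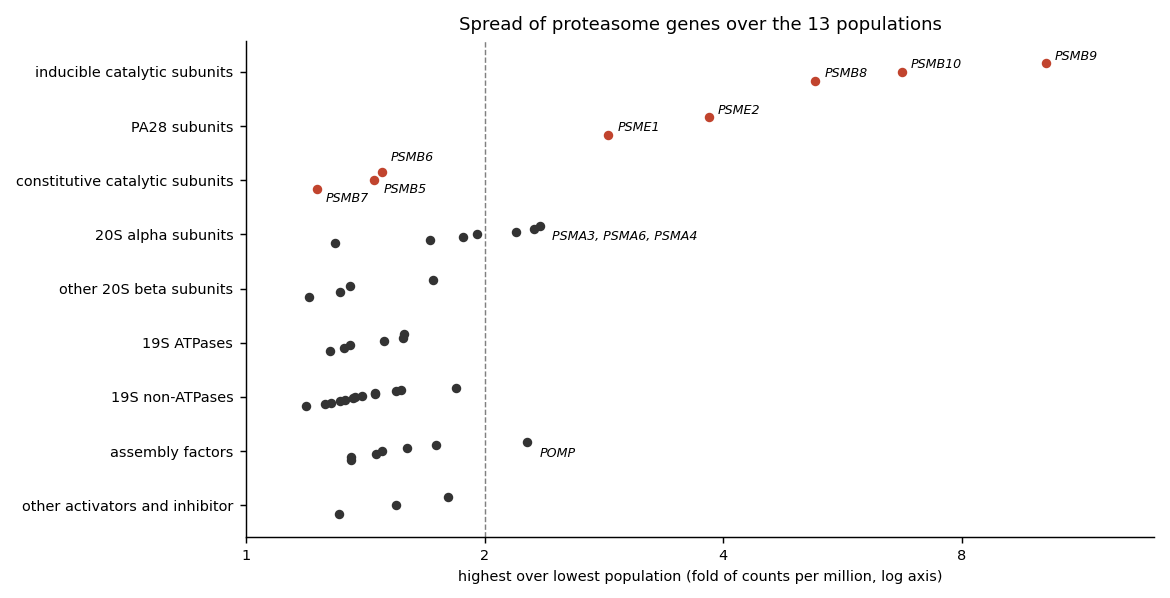
Highest over lowest population (horizontal axis, fold of CPM, log scale) for each tested proteasome gene, by list (vertical axis); red points are the 8 members, the dashed line is 2-fold. PSMB8, PSMB9, PSMB10, PSME1, PSME2, PSMA3, PSMA4, PSMA6 and POMP lie to its right.

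Ranges were wide, but unequal, among genes upstream of the inducible subunits or beside them in antigen presentation. IRF1, an interferon-induced transcription factor, ran from 86.6 CPM (HTO3+HTO6) to 1917 (HTO2+HTO9), or 22.1-fold. IRF9 reached 3.57-fold, and NLRC5, the class I transactivator, was under the UMI minimum with 316 UMIs. All 4 genes tested of peptide transport and trimming reached 2-fold, from TAPBP at 2.95 and ERAP1 at 4.56 to TAP2 at 12.7 and TAP1 at 22.2; ERAP2 was under the minimum. All 4 TNF-response genes reached 4-fold, from NFKBIA at 8.96 to ICAM1 at 46.3, with TNFAIP3 and SOD2 between them.

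The 4 leading populations were then compared at a matched second hashtag, since HTO8 and HTO9 each occurred with HTO2 and with HTO4. In HTO4+HTO8 against HTO2+HTO8, 2 of the 8 members were 1.5-fold or more higher, where 15.6% of genes were. They were PSMB10 (1.69-fold) and PSME1 (1.57-fold, 1.46 to 1.69). PSME2 was 1.41-fold (1.35 to 1.48), PSMB9 1.14-fold (1.08 to 1.21), and PSMB8 and the 3 constitutive subunits did not differ beyond counting error. In HTO4+HTO9 against HTO2+HTO9, 5 of the 8 were 1.5-fold or more higher, against 13.3% of genes: PSMB10 at 2.32-fold, PSME1 at 1.91, PSMB9 at 1.91, PSME2 at 1.65 and PSMB8 at 1.56. No member was 1.5-fold or more lower in either comparison, where 8.11% and 13.1% of genes were.

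Several genes of the same pathway, named after their values were seen, ran the other way in these pairs, and others did not. IRF1 in the HTO4 population was 0.644-fold that of the HTO2 population for HTO8 and 0.601-fold for HTO9. TAP1 was 0.611-fold and 0.696-fold, and POMP was 0.643-fold and 0.734-fold. CXCL10, an interferon-induced chemokine, was at 366 CPM in HTO4+HTO8 against 6086 in HTO2+HTO8 (0.0602-fold), and at 517 in HTO4+HTO9 against 6480.1 in HTO2+HTO9 (0.0798-fold). B2M, which encodes the class I light chain, was 1.27-fold and 1.55-fold higher in the HTO4 populations. IRF9 was at 105 CPM in HTO4+HTO8 against 92.4 in HTO2+HTO8, and at 144 in HTO4+HTO9 against 89.2 in HTO2+HTO9. ERAP1 and TAP2, described under other observations, had ratios above 1 in both pairs.

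**Figure D4:**
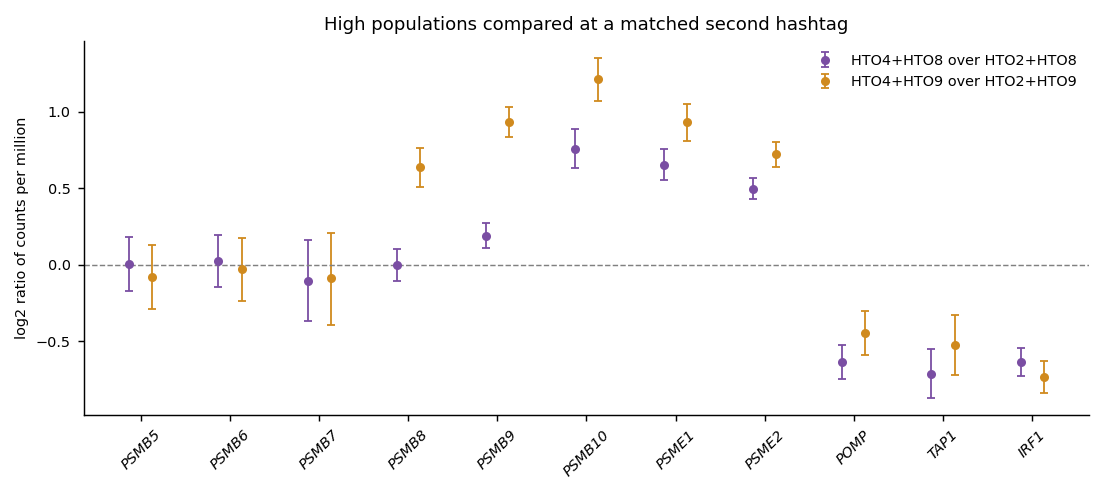
Log2 ratio of CPM (vertical axis) between populations that share a second hashtag, HTO4 over HTO2, for the 8 members, POMP, TAP1 and IRF1 (horizontal axis), with 95% counting intervals. PSMB9, PSMB10, PSME1 and PSME2 lie above 0 for both hashtags, the 3 constitutive subunits have intervals that include 0, and POMP, TAP1 and IRF1 lie below 0.

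In the middle group, some other genes separated from the members and some did not. PSMB9 did not differ beyond counting error between HTO3+HTO6 and HTO2+HTO6 (0.988-fold, 0.888 to 1.10), nor did PSMB8 (1.08-fold, 0.961 to 1.21), and PSMB10 was 0.824-fold (0.698 to 0.969). Between the same 2 populations IRF1 was 0.245-fold, CXCL10 0.111-fold and the TNF-response genes ICAM1 and NFKBIA 0.0625-fold and 0.112-fold, and B2M was 1.44-fold. Other genes stood closer. TAP1 was at 79.6 CPM in HTO3+HTO6 and 100.3 in HTO2+HTO6, TAP2 at 31.2 and 37.1, and IRF9 at 75.5 and 78.8. Against its neighbour HTO3+HTO7, HTO3+HTO6 had 2.41-fold more PSMB9 (2.06 to 2.82) and 1.83-fold more PSMB8 (1.57 to 2.13). HTO3+HTO6 was also the population with the lowest share of barcodes past the cell filter (24.3%), and the part of this in its values was not tested.

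Profiles over the 13 populations were compared between genes by the root mean square (RMS) difference of centred log2(CPM + 1) values, among genes with 500 UMIs or more. PSMB5 and PSMB6 had profiles 0.10 apart, PSMB8 and PSMB10 0.27, PSMB8 and PSMB9 0.33, and PSMB9 and PSMB5 1.26. The genes nearest to PSMB8 were DDX60 (0.18), IFI35 (0.19), DTX3L (0.20), UBE2L6 (0.22) and ISG15 (0.24). Those nearest to PSMB9 included RTP4 (0.24), APOL6 (0.25), UBE2L6 (0.25) and HLA-E (0.27). PSMB10 was nearest to UBE2L6 (0.24), LGALS9 (0.26), VAMP5 (0.26), PSMB8 (0.27) and SOX4 (0.29). The genes nearest to PSME1 included IFITM3 (0.12), FMR1 (0.13), B2M (0.18) and BST2 (0.18), and PSME2 was nearest to LPIN2 (0.22), B2M (0.22), PSME1 (0.22), IFI35 (0.23) and PSMA4 (0.24). Ranked by Pearson correlation instead, only 1, 2, 1, 2 and 0 of the 5 nearest genes were found again for PSMB8, PSMB9, PSMB10, PSME1 and PSME2, so the names depend on the measure.

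Within populations, the inducible subunits varied more closely with PA28 than with the constitutive subunits. To compare cells of unlike depth, 2808 cells were thinned to 4000 UMIs each, and 186 shallower cells were left out. After centring on populations, the summed inducible UMIs and the summed PA28 UMIs had a Pearson correlation of 0.388 over cells, and it was above 0 in 13 of 13 populations (0.250 to 0.460). The summed inducible and constitutive UMIs had a correlation of 0.0058, from -0.128 to 0.152 within populations, and 0.142 when all UMIs were scaled and log1p transformed instead of thinned. The constitutive and PA28 sums had 0.119, above 0 in 11 of 13 populations. Among single genes, PSMB9 with PSME2 had 0.295, PSMB8 with PSMB9 0.263, PSMB9 with PSMB10 0.216 and PSME1 with PSME2 0.214. The inducible sum had 0.376 with B2M and 0.166 with IRF1. The constitutive sum had 0.231 with PSMA7 and 0.207 with PSMB1. Cells of 1 library share its preparation and are not replicates, and these sparse counts make all correlations small, so they are given as a description.

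The high share in HTO4+HTO8, HTO4+HTO9 and HTO2+HTO8 was found in most of the cells that could be assessed. Over 2334 cells with 10 or more UMIs of the 6 catalytic genes, the median inducible share per cell ran from 30.4% in HTO3+HTO7 to 82.4% in HTO4+HTO9. Because this minimum counts the inducible UMIs too, it kept unequal parts of the populations, such as 181 of 185 cells in HTO2+HTO8 but 80 of 140 in HTO3+HTO5 and 83 of 149 in HTO3+HTO9, so percentiles are given as a description of the cells kept. The 10th percentile in HTO4+HTO9 was 73.9% and that in HTO4+HTO8 69.2%, above the 90th percentiles of HTO3+HTO5 (57.3%), HTO3+HTO7 (56.7%), HTO3+HTO9 (61.5%), HTO4+HTO6 (64.3%) and HTO4+HTO7 (68.0%). In HTO2+HTO8 the median was 78.4% and the 10th percentile 64.7%. HTO2+HTO9 was wider, from 47.7% to 87.3%. The variance of the share between cells, divided by that of binomial counting alone, was 1.56 in HTO4+HTO8 and 1.57 in HTO4+HTO9, and between 2.15 and 3.40 in the other 11 populations.

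**Figure D5:**
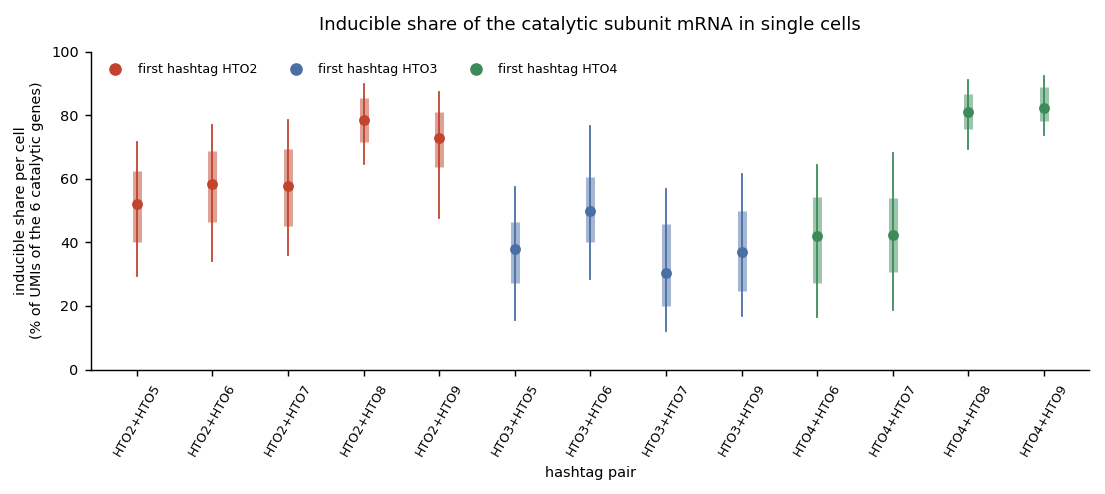
Inducible share of the UMIs of the 6 catalytic genes in single cells (vertical axis, percent) by population (horizontal axis), for cells with 10 or more such UMIs. Points are medians, thick bars run from the 25th to the 75th percentile and thin lines from the 10th to the 90th; HTO4+HTO8 and HTO4+HTO9 have 10th percentiles of 69.2% and 73.9%.

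The inducible share also moved with the depth of a cell. When each population was divided into 3 equal parts by UMIs per cell, the share was lower in the deepest part than in the shallowest in 13 of 13 populations, by 2.99 to 15.4 percentage points. In HTO3+HTO7 it was 43.6% in the shallowest and 28.1% in the deepest part, and in HTO4+HTO9 it was 86.4% and 79.7%. The summed CPM of the constitutive subunits was higher in the deepest part in 13 of 13 populations, by 1.22-fold to 2.09-fold, while that of the inducible subunits was higher in 4 of 13, with ratios of 0.753 to 1.29. The share was also higher in cells with over 10% to 20% mitochondrial UMIs than in those with at most 10% in 11 of 13 populations, with differences of -8.21 to 10.9 points. HTO4+HTO9 and HTO4+HTO8, with the highest shares, had medians of 6434.5 and 7228 UMIs per cell, among the lowest of the populations. The medians were 9147 in HTO2+HTO8, 9431 in HTO2+HTO9 and 9094 in HTO3+HTO7. The part of depth and of mitochondrial share in the differences between populations was not tested. The largest depth difference exceeded many of the gaps between neighbouring populations, such as that from 57.0% (HTO2+HTO6) to 49.9% (HTO2+HTO5).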

How the data were processed

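A droplet 3' library of 13 pooled OVCAR5 tumours and its hashtag library were analysed as deposited. The deposited matrix holds whole-number UMI counts without normalisation. Per the file headers its software was Cell Ranger 5.0.1, whereas version 2.1.1 and the build GRCh38 stand in the submitters' processing notes; the sources used here name no annotation. It has 9083 barcodes, 36601 genes, 10 hashtags and 64826985 gene UMIs. A barcode was given to a pair when its second hashtag (of HTO2 to HTO9) had 20 counts or more and 4 times the third; the others were left out as unassigned or multiplets. Multiplets within a population cannot be seen this way, and no other caller was run. Pairs needed 50 cells, and cells 500 genes and at most 20% mitochondrial UMIs. UMIs were summed per population and given as CPM, with exact Poisson, conditional binomial or Clopper-Pearson 95% intervals, which cover counting error only. No p-value was computed. Named genes were the 8 members, the extremes and any 2-fold gene of each list, and the 5 nearest profiles; other genes were named after their values were seen. The members and lists were chosen with earlier results of these data known. Alternatives were other cell filters, hashtag rules, denominators, weights, thinning, likeness measures and UMI minimums. Tools were scipy 1.17.1, numpy 2.4.6, matplotlib 3.10.9, pandas 2.3.3 and Python 3.11.15. Results of a few genes and of 1 promoter motif are not reported here. Columns of other samples numbered 0.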

Additional observations from a re-analysis of the deposited data

Results flagged for a closer look

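Barcodes that the comparisons left out also held RNA of the inducible subunits. The 4491 barcodes that carried the pair of a population but failed the cell filter had 18782 UMIs of PSMB8, PSMB9 and PSMB10, which were 62.5% (61.9 to 63.0) of their UMIs of the 6 catalytic genes. Their levels were 346 CPM for PSMB9 and 209.5 CPM for PSMB5. The 617 barcodes that passed the filter without a clear pair had 8399 such UMIs, 57.4% (56.6 to 58.2), with 584 CPM for PSMB9 and 391 CPM for PSMB5. Over the cells of the populations the share was 58.6%. These barcodes mix cells of several tumours, and there were no control samples to set them against.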

How the results depend on the processing

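The 4 populations with the highest inducible share were the same in all 7 alternative settings of cells, hashtags and weights, in the same order, and the lowest was HTO3+HTO7 except with the looser filter and with no filter, where it was HTO3+HTO5. The spread of that share, 48.1 points, became 53.9 with the stricter filter (1000 genes, at most 10% mitochondrial UMIs), 45.5 with the looser one (at most 50%), 45.03 with no filter and 45.6 with thinned cells. The stricter filter left 400 cells, with 12 to 69 per population. With it the spread of PSMB8 over PSMB5 was 8.30 and that of PSMB10 over PSMB7 was 18.2. The cause of these wider spreads was not tested. In the 6 other settings the spreads were 5.83 to 6.38 and 6.65 to 7.26, respectively. Ranges of single genes that left their counting interval with the stricter filter were 2.27 for PSMB5, 1.65 for PSMB6 and 1.92 for PSMB7. Those of PSMB10 (11.4), PSME1 (3.26) and PSME2 (4.53) did so too, as did PSME1 with thinned cells (3.35). PSMB9 had 8.56 when cells were averaged instead of summed, below its interval of 8.83 to 11.9. PSMB9 over PSMB6 had 11.3 to 13.2 in 7 settings, within its counting interval. No result reversed. With genes of 30 UMIs or more in place of 500, 69.3% of genes reached 2-fold, against 39.8%. The correlation of inducible and constitutive sums was 0.142 with all UMIs scaled to 10000 per cell and log1p transformed, against 0.0058 when thinned. No paired analysis was possible because there is 1 pooled gene library and the pairs of hashtags are not mapped to tumours or treatments. Depth limits PSMB7 most, with 120 to 840 UMIs per population. No step between neighbours in the order of its level exceeded counting error, while its 1.23-fold range had an interval of 1.02 to 1.49.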

Other observations

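PSMA6, an alpha subunit of the core, had its highest level in HTO2+HTO6, as did 3 of the 4 TNF-response genes, NFKBIA, TNFAIP3 and SOD2. Its level was 873 CPM in HTO2+HTO6 against 378 CPM in HTO4+HTO6, and NFKBIA, the inhibitor of NF-kB that NF-kB itself induces, was at 1272 and 159 CPM in the same populations. In HTO4+HTO6 over HTO2+HTO6, PSMA6 was thus 0.433-fold (0.401 to 0.468), while PSMA7 was 1.13-fold (1.08 to 1.20) and PSMA4 0.828-fold. PSMA6 and NFKBIA lie near each other on chromosome 14: PSMA6 (chr14:35278633-35317493, plus strand) ends 84017 bases before NFKBIA (chr14:35401511-35404749, minus strand). The orders were not the same throughout, since NFKBIA was at 506 CPM in HTO2+HTO8, where PSMA6 was at 853, and at 195 CPM in HTO2+HTO5, where PSMA6 was at 602. This pairing of genes was chosen after the values were seen.

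ERAP1, which trims peptides after their transport, was the gene of the transport and trimming list that was higher in both HTO4 populations by the most. It was 1.59-fold (1.14 to 2.24) in HTO4+HTO8 over HTO2+HTO8 and 2.04-fold (1.43 to 2.90) in HTO4+HTO9 over HTO2+HTO9. TAP2, the partner chain of TAP1 in the transporter, was 1.19-fold (0.970 to 1.45) and 1.37-fold (1.08 to 1.72) in these comparisons, where TAP1 was 0.611-fold and 0.696-fold.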
